A study of Mus musculus with 6 samples.

Results

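The 33 genes described here encode the proteins that fold, hold together and separate chromosomes: the condensin, cohesin and SMC5/6 complexes with their regulators, the type II topoisomerases, the HMGB proteins, Ki-67, CTCF and SMCHD1. They were listed by name, with earlier results of these data known, and all 33 were found among the 14883 genes of the count table. RNA came from B16F10luc2 cells, a mouse melanoma line, grown on elastic-bottomed plates in DMEM with 10% serum. The 3 static samples were left still, and the 3 stretch samples were elongated by 15% equally in all directions of the plate, at 15 cycles per minute for 24 h. Both groups had the same plates, medium and line, so every sample carries whatever that line carries, and the labels do not say whether replicates were separate cultures. A p-value given here therefore reflects sample-to-sample spread alone, and that spread may be technical. The comparison asks how cyclic stretch alters gene expression in these melanoma cells.

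Condensin and cohesin are rings built on pairs of SMC proteins, long coiled-coil ATPases that extrude or embrace loops of DNA. Cohesin holds sister chromatids together from replication until anaphase and, with CTCF, folds interphase chromatin, while condensin I and condensin II compact chromosomes for mitosis. Topoisomerase II untangles the sisters, Ki-67 coats the surface of mitotic chromosomes, and HMGB proteins bend DNA. Several of these genes, such as Top2a and Mki67, are transcribed mostly from S phase to mitosis, whereas others, such as Top2b and Ctcf, are active throughout the cycle, so that a culture richer in dividing cells has more of the former.

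Most of these genes were higher in stretched cells, none passed as lower, and the size of the gain was uneven. A gene was called when its Benjamini-Hochberg adjusted p in edgeR's quasi-likelihood test, adjusted over all 12377 tested genes, was under 0.05. By that rule 27 of the 33 genes (81.8%) rose, against 24.9% of all tested genes, 0 fell, against 25.9% of all, and 6 were not called. The median log2 fold change of the 33 was 0.35, against 0.00377 for all tested genes. Only 4 of them rose more than 1.5-fold, namely Mki67, Smc4, Hmgb2 and Hmgb3, while 17 rose between 1.2-fold and 1.5-fold and 6 by less than 1.2-fold. The levels in stretched libraries, scaled with edgeR's TMM factors, lay wholly above those in static libraries for 26 of the 33, against 29% of all tested genes. In bulk RNA a larger share of cells that express a gene and more RNA per cell cannot be told apart.

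The libraries held 19469286 to 36351400 counts, and no gene of the 33 had fewer than 200 counts in any library. All 7 melanocyte markers checked (Mitf, Tyr, Tyrp1, Dct, Pmel, Mlana and Sox10) were present, with a summed level of 22234 to 23927 CPM (the count relative to the total of its library) in static and 20300 to 20811 in stretched libraries. Of 5 leukocyte, 3 endothelial and 4 epithelial markers, 1 each was in the table, and the highest level among them in any library was 1.28. Of 6 fibroblast markers 5 were in the table, with a summed level of 22.9 to 28.4 in static and 21.5 to 23.1 in stretched libraries. Single markers moved within these sums: Pdgfrb fell 1.49-fold and Col1a1 1.31-fold among the fibroblast markers, and among the melanocyte markers Tyrp1 fell 1.24-fold, Pmel 1.22-fold and Dct 1.06-fold while Mitf rose by 0.37 in log2. Their part in the results was not tested. The 33 genes had AT-rich and long transcripts, with a median GC content of 42.4% and a median length of 4851 nt, against 49.6% and 3384 nt for all tested genes. With an offset for each library that removes its trend with GC content and length, 24 of the 33 rose (22.5% of all tested genes) and the median log2 fold change was 0.26. Against a null of 1.2-fold with glmTreat, 15 rose, against 5.49% of all tested genes.

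**Figure D1:**
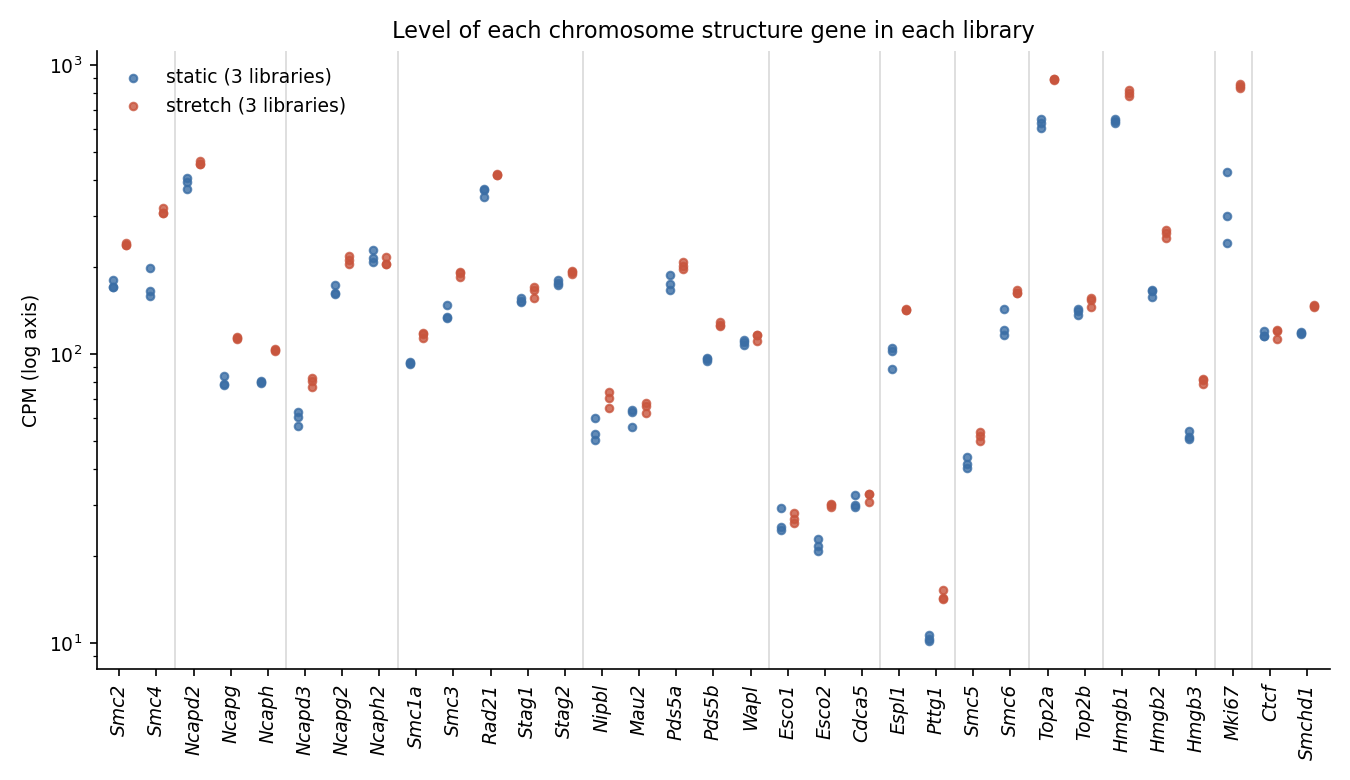
Level of each of the 33 genes in each of the 6 libraries, in CPM scaled with edgeR's TMM factors, on a log axis. Each point is 1 library and grey lines part the complexes. Stretched libraries lie wholly above static ones for 26 genes, and static libraries of Mki67 spread from 242 to 428 CPM. The groups overlap for the other 7 genes: Ncaph2, Stag1, Mau2, Wapl, Esco1, Cdca5 and Ctcf.

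The stretch of DNA just upstream of a gene start is where the factors that time transcription in the cell cycle bind, and it is shown here for genes that moved by different amounts. The CHR element is known as the site of the MuvB complex, the CCAAT box as that of NF-Y, and the E2F site as that of the E2F factors. RefSeq windows (GRCm38.p6) were at hand for 27 of the 33 genes, 30 windows in all, and the 250 bases before each start were searched on both strands. Of these, the windows of Ncapd2, Stag1, Wapl, Pttg1 and Smc5, and 1 each of Ncapd3, Mau2 and Hmgb1, lay wholly inside the gene's span. The windows of Ctcf and Mki67, among others, reached into it. Bases after the start were in no GENCODE transcript of the gene for Hmgb2, Ctcf and 1 window each of Ncapd3 and Mau2. All of these windows were kept in the shares below. The CHR words TTTGAA or TTCGAA were in 16 of 30 windows (53.3%), against 17.1% of all 32851 windows and 12.3% of the windows of tested genes. The CCAAT word was in 14 windows (46.7%), against 33.8% of all and 35.6% of those of tested genes. An E2F word was in 9 (30%), against 7.9% of all and 13.8% of those of tested genes. The E2F words were TTCCCGC and TTCGCGC, and also TTGCCGC together with TTGGCGC. No word of 1 kind overlapped a word of another kind in these windows. Windows of genes that rose held a CHR word in 12 of 24 cases, and windows of genes not called in 4 of 6. For the CCAAT word these counts were 13 of 24 and 1 of 6, and for the E2F words 8 of 24 and 1 of 6. With only 6 windows of genes not called, no difference between these shares was tested. The sequences of Top2a and its paralog Top2b, of Mki67, Ncapg and Hmgb2, and of Ctcf, which was not called, run 5′ to 3′ toward the RefSeq start, with every CHR, CCAAT and E2F word in capitals.
Top2a, chr11:99024190-99024439, minus strand: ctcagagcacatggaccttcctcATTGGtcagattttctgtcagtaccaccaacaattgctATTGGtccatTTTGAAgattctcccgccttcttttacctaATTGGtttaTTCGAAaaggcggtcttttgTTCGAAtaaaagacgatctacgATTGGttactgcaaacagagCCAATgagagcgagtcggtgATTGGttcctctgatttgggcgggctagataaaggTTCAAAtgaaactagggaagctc
Top2b, chr14:16364956-16365205, plus strand: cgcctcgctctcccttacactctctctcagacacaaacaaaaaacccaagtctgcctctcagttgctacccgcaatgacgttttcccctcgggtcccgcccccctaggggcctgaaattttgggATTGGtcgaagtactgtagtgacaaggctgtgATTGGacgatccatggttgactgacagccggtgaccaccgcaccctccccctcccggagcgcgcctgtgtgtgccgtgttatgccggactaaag
Mki67, chr7:135716380-135716629, minus strand: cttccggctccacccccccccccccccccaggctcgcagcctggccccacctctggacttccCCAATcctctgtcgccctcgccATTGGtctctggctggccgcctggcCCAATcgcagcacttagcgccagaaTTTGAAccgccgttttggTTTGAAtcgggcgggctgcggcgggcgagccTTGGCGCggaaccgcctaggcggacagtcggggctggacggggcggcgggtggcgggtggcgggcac
Ncapg, chr5:45669675-45669924, plus strand: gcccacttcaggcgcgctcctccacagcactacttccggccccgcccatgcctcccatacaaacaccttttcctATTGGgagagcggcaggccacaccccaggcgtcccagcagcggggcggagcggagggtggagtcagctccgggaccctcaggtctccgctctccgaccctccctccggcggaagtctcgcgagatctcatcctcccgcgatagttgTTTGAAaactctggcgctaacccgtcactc
Hmgb2, chr8:57511593-57511842, plus strand: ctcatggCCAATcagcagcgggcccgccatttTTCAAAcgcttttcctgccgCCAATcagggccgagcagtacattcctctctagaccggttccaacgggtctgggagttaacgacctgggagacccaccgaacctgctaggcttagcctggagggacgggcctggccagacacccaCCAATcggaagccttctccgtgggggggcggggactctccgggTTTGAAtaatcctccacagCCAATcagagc
Ctcf, chr8:105636288-105636537, plus strand: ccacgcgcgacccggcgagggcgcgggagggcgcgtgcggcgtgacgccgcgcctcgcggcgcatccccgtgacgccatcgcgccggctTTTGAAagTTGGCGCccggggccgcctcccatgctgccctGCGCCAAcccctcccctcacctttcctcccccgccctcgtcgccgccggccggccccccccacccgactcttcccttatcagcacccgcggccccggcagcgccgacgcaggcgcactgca
Top2a held 4 CHR and 6 CCAAT words, whereas Top2b held 2 CCAAT words and no CHR word. Mki67 held all 3 kinds of word, as did Ncapd2, which rose 1.17-fold, and Pds5b, which rose 1.32-fold. Ctcf held a CHR word and E2F words but no CCAAT word. In 9 genes 1 window held both a CHR and a CCAAT word: Smc2, Ncapd2, Ncapg, Pds5b, Espl1, Top2a, Hmgb2, Hmgb3 and Mki67. All 9 rose, as did 22 of the 27 genes with a window, so little can be read from that count. The 4 genes whose windows held no word of any kind, Ncaph, Smc3, Pttg1 and Smc5, rose as well. The word matches describe the letters only.

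Condensin genes rose except for 1 subunit of condensin II. CPM here, as everywhere but for the cell type markers, is scaled with edgeR's TMM factors. Smc4, which with Smc2 forms the ATPase core shared by both condensins, had 158, 165 and 199 CPM in static replicates 1, 2 and 3, and 307, 307 and 319 in the stretched ones. Static replicate 3 stood above the other static libraries, and all stretched libraries stood above it. Smc4 (Entrez Gene 70099; chromosome 3, 69004738 to 69034623 in GRCm38) thus rose 1.78-fold, or by 0.83 in log2 (SE 0.063, edgeR adjusted p = 7.1e-08), behind only Mki67 among the 33. Smc2 had 171, 171 and 181 CPM in static and 238, 239 and 243 CPM in stretched libraries, and rose 1.38-fold (edgeR adjusted p = 1.02e-07).

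All 3 subunits that make condensin I specific rose, by unequal amounts. Ncapg, a HEAT-repeat subunit, had 79.0, 83.8 and 77.8 CPM in static libraries and 113, 113 and 115 in stretched ones, a rise of 1.42-fold (log2 0.51, SE 0.039, edgeR adjusted p = 8.04e-08). Its log2 fold change under the GC and length offset was 0.33. The span of Ncapg shares 3367 bases with that of Lcorl, whose log2 fold change was 0.20. Without known strand these genes may share reads, and the part of Lcorl in the value of Ncapg was not tested. Ncaph, the kleisin that closes the ring, went from 80.0 ± 0.449 to 103 ± 0.496 CPM (mean ± SD, n = 3 per group), or 1.29-fold. Libraries of a group were close for this gene, with a coefficient of variation of 0.562% in static and 0.481% in stretched cells. Ncapd2, the other HEAT-repeat subunit, rose from 391 ± 17.8 to 457 ± 5.97 CPM, only 1.17-fold, and did not pass against 1.2-fold.

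Of the 3 subunits of condensin II, which stays in the nucleus and acts from prophase on, Ncapd3 rose from 60.1 ± 3.34 to 79.9 ± 2.70 CPM (1.33-fold) and Ncapg2 from 166 ± 6.43 to 212 ± 7.19 CPM (1.28-fold). Ncaph2, the kleisin of condensin II, had 215, 228 and 208 CPM in static and 204, 205 and 216 CPM in stretched libraries. The groups overlapped, and the log2 fold change of -0.06 had a 95% interval of -0.14 to 0.03. This estimate was 0.00626 with scaling by library size alone and 0.0317 with the GC and length offset, and was called under neither. The span of Ncaph2 overlaps those of Sco2 and Tymp, with log2 fold changes of -0.69 and -0.73, and without known strand such genes may share reads. Their part in the value of Ncaph2 was not tested.

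The 5 genes of the cohesin ring all passed as higher, against 24.9% of all tested genes, but the gains ran from 1.07-fold to 1.36-fold. Against 1.2-fold only 1 of the 5, Smc3, passed, and 5.49% of all tested genes did. Under the GC and length offset 3 of the 5 passed, against 22.5% of all. Smc3, an ATPase of the ring whose acetylation locks cohesin on DNA, had 134, 133 and 148 CPM in static and 185, 193 and 190.0 CPM in stretched libraries, a rise of 1.36-fold (log2 0.45, SE 0.043, edgeR adjusted p = 8.59e-07). Smc1a, its partner, rose from 93.4 ± 0.716 to 117 ± 2.43 CPM (1.25-fold). Rad21, the kleisin that separase cuts at anaphase, had 371, 369 and 349 CPM in static and 419, 415 and 415 in stretched libraries. The groups did not overlap, yet the rise was 1.15-fold (edgeR adjusted p = 0.000291), under the 1.2-fold null.

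Stag1 and Stag2 encode the alternative subunits that bind cohesin to CTCF and to chromatin, and theirs were the smallest gains among the called genes with Top2b. Stag2 went from 177 ± 3.30 to 192 ± 2.93 CPM (1.08-fold, edgeR adjusted p = 0.0115) and Stag1 from 153 ± 2.72 to 164 ± 7.39 CPM (1.07-fold, edgeR adjusted p = 0.0414). Stag1 had 156 CPM in static replicate 2 and 156 in stretched replicate 3, so its groups overlapped. Leaving out static replicate 1 gave an edgeR adjusted p of 0.126, static replicate 3 0.0809, stretch replicate 1 0.138 and stretch replicate 2 0.2, and DESeq2 gave 0.0579. That of Stag2 was 0.064 without static replicate 1 and 0.0514 without stretch replicate 3. Under the GC and length offset the log2 fold changes were -0.01 for Stag1 and -0.05 for Stag2, and neither passed.

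Cohesin is loaded by NIPBL with MAU2 and taken off by WAPL with the PDS5 proteins. Of these 5 genes 3 rose, against 24.9% of all tested genes. Against 1.2-fold only 1 of them, Pds5b, passed, and 5.49% of all tested genes did. Nipbl had 52.7, 50.5 and 60.1 CPM in static and 70.3, 73.7 and 65.2 CPM in stretched libraries, a rise of 1.28-fold (edgeR adjusted p = 0.000194) with no overlap. Pds5b had 96.5, 94.9 and 95.9 CPM in static and 125, 129 and 126 in stretched libraries, and rose 1.32-fold (edgeR adjusted p = 3.06e-07). Its paralog Pds5a rose 1.14-fold, from 176 ± 10.3 to 202 ± 5.66 CPM (edgeR adjusted p = 0.00174), and was no longer called under the GC and length offset (log2 0.05, edgeR adjusted p = 0.241). Under that offset the log2 fold changes of Nipbl and Pds5b went from 0.35 to 0.20 and from 0.40 to 0.26, and both passed.

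Wapl and Mau2 were not called. Wapl had 108, 110.0 and 111 CPM in static and 116, 116 and 111 in stretched libraries, with a log2 interval of -0.01 to 0.14 for its change. Mau2 had 62.9, 55.8 and 63.9 CPM in static and 65.8, 62.5 and 67.7 in stretched libraries, with an interval of -0.01 to 0.21. Static replicate 2 was the low library for Mau2. It passed in edgeR once static replicate 3 was left out (edgeR adjusted p = 0.0467), when scaled by library size (0.0309) and under the GC and length offset (0.0205, log2 0.14), and Wapl when scaled by library size (0.0125).

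Among the genes that make and guard cohesion, the S phase acetyltransferase gene moved and its relative did not pass. Esco2, which acetylates SMC3 during replication, had 20.8, 21.6 and 22.8 CPM in static and 29.9, 29.5 and 30.2 in stretched libraries, a rise of 1.37-fold (log2 0.46, SE 0.054, edgeR adjusted p = 7.03e-06). Esco1, an acetyltransferase active throughout the cycle, had 24.6, 25.3 and 29.4 CPM in static and 26.9, 28.2 and 25.99 in stretched libraries. The highest Esco1 value of all 6 was that of static replicate 3, and the interval of its log2 change was -0.12 to 0.17. Cdca5, the gene of sororin, which blocks WAPL until mitosis, went from 30.7 ± 1.60 to 32.1 ± 1.12 CPM and was not called (interval -0.06 to 0.18).

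The protease that opens cohesin and the inhibitor that holds it in check rose together. Espl1, the gene of separase (Entrez Gene 105988; chromosome 15, 102296254 to 102324357), had 102, 89.0 and 105 CPM in static and 143, 143 and 142 CPM in stretched libraries. Static replicate 2 was the low library, while the stretched ones were close together (SD 0.497). The rise was 1.44-fold (log2 0.53, SE 0.050, edgeR adjusted p = 6.72e-07). Pttg1, the gene of securin, had the lowest CPM of the 33 and rose by 0.49 in log2, from 10.4 ± 0.249 to 14.6 ± 0.547 CPM (edgeR adjusted p = 4.63e-05).

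Smc5 and Smc6, the ATPase pair of a complex that acts in recombination and in clearing DNA tangles, rose by similar amounts. Smc6 had 117, 121 and 143 CPM in static and 162, 167 and 163 CPM in stretched libraries (1.29-fold, edgeR adjusted p = 0.0001). Smc5 rose 1.24-fold, from 42.0 ± 1.97 to 52.0 ± 1.76 CPM (edgeR adjusted p = 8.03e-05). The span of Smc6 overlaps that of Gen1, whose log2 fold change was 0.34. Neither Smc5 nor Smc6 passed against 1.2-fold, and with the GC and length offset their log2 fold changes went from 0.31 to 0.16 and from 0.37 to 0.24.

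The 2 genes of interphase chromatin architecture differed. Smchd1, a non-canonical SMC protein known from X chromosome silencing, had 118, 118 and 119 CPM in static and 148, 147 and 146 CPM in stretched libraries, and rose 1.24-fold (edgeR adjusted p = 3.12e-06). It did not pass against 1.2-fold, and its log2 fold change went from 0.31 to 0.19 under the GC and length offset. Ctcf, the zinc finger protein that stops loop extrusion by cohesin, had 115, 116 and 120.3 CPM in static and 120.5, 121 and 112 CPM in stretched libraries. These overlapped, and the interval of the log2 change was -0.07 to 0.10.

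The type II topoisomerases separated by isoform. Top2a (Entrez Gene 21973; chromosome 11, 98992947 to 99024199), the isoform of dividing cells, had 629, 648 and 604 CPM in static and 884, 895 and 892 CPM in stretched libraries. It rose 1.42-fold (log2 0.51, SE 0.035, edgeR adjusted p = 3.09e-08). Top2b, the isoform also present in resting cells, had 143, 141 and 136 CPM in static and 153, 156 and 146 CPM in stretched libraries, a rise of 1.08-fold (edgeR adjusted p = 0.0195). The call of Top2b was lost without static replicate 3 (edgeR adjusted p = 0.0591), without stretch replicate 1 (0.0812) and without stretch replicate 2 (0.101), and under the GC and length offset its log2 fold change was -0.05 (0.324).

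All 3 HMGB genes rose, and Hmgb2 had the lowest p of the 33. Hmgb2 (Entrez Gene 97165; chromosome 8, 57511843 to 57515999), the family member linked to proliferating cells, had 165, 157 and 167 CPM in static and 252, 262 and 268 CPM in stretched libraries. It rose 1.60-fold (log2 0.68, SE 0.039, edgeR adjusted p = 4.54e-09). Hmgb3 had 51.7, 54.1 and 50.9 CPM in static and 81.4, 81.7 and 78.5 CPM in stretched libraries (1.55-fold, edgeR adjusted p = 1.52e-08). Hmgb1, the abundant and widely expressed member, rose 1.25-fold, from 640.4 ± 12.0 to 800.5 ± 19.6 CPM. Hmgb1 did not pass against 1.2-fold, and its log2 fold change went from 0.32 to 0.20 with the GC and length offset. HMGB genes have many near-identical processed copies in the genome, and how counts were shared among these is uncertain.

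Mki67 had both the largest gain and the widest static spread of the 33. Its static levels of 299, 242 and 428 CPM gave a coefficient of variation of 29.4%, against 1.44% among the stretched libraries and a median of 3.88% for the static libraries of the 33 genes. The log2 fold change of 1.38 (95% interval 1.11 to 1.66) ran from 1.22 to 1.64 when 1 library was left out. Static replicate 3 held the highest static level in all 6 genes whose static coefficient of variation was over 8%, namely Mki67, Smc4, Smc6, Esco1, Nipbl and Espl1. It was highest for 19 of the 33 genes, against 35.7% of all tested genes. Without this library the log2 fold change was 1.64 for Mki67, 0.94 for Smc4, 0.46 for Smc6, 0.43 for Nipbl and 0.57 for Espl1. Each was above its value with all 6 libraries, which follows from leaving out the highest static library of these genes. Of the 33 genes 26 rose without it, against 24.8% of all tested genes.

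**Figure D2:**
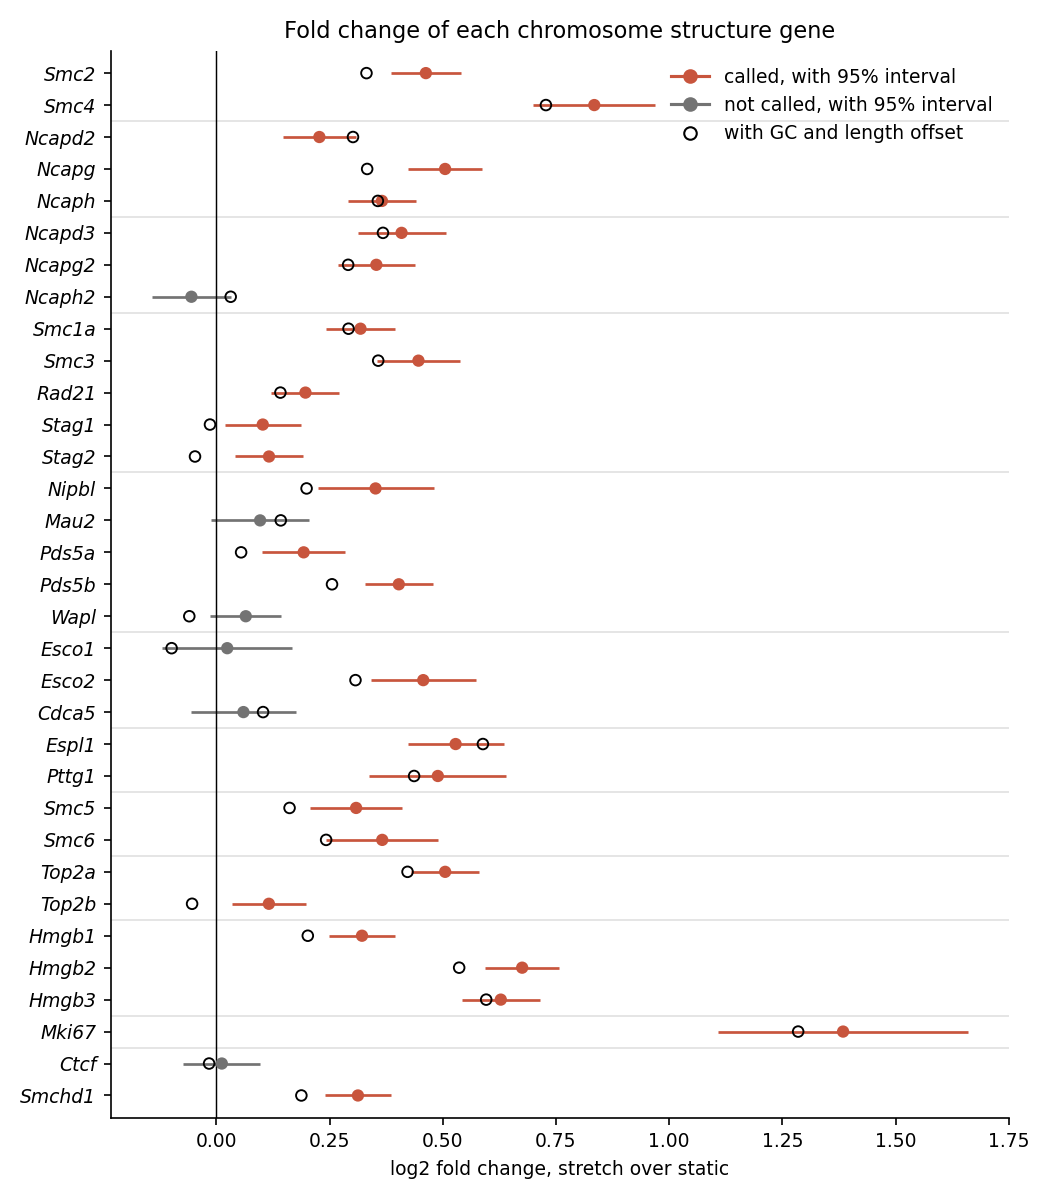
Log2 fold change of each gene, stretch over static, with its 95% interval from edgeR's quasi-likelihood fit; filled points in colour passed an adjusted p under 0.05, grey points did not, and open circles are the estimates with the GC and length offset. Mki67 lies at 1.38, and among the genes that passed the open circles of Stag1, Stag2 and Top2b lie below 0.

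Ratios within a library, which do not depend on scaling between libraries, were compared for 7 pairs of related genes. The log2 ratio of Top2a to Top2b was 2.14, 2.20 and 2.15 in static and 2.53, 2.52 and 2.61 in stretched libraries, a difference of 0.39. That of Esco2 to Esco1 was -0.24, -0.23 and -0.37 in static and 0.15, 0.07 and 0.22 in stretched libraries, a difference of 0.42. The ratio also did not overlap between groups for Smc4 to Smc2 (difference 0.38), Hmgb2 to Hmgb1 (0.36) and Pds5b to Pds5a (0.21). In each of these 5 pairs the first gene gained more. Each had p = 0.1 in the two-sided exact permutation test, the smallest that 3 against 3 samples can give, and an adjusted p of 0.14 over the 7 pairs, so none could pass. For Ncapg to Ncapg2, the equivalent subunits of condensin I and II, the groups overlapped (difference 0.15, exact permutation p = 0.2, adjusted p = 0.233). For Stag2 to Stag1 the ratio was 0.21 ± 0.013 in static and 0.22 ± 0.082 in stretched libraries (exact permutation p = 1).

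**Figure D3:**
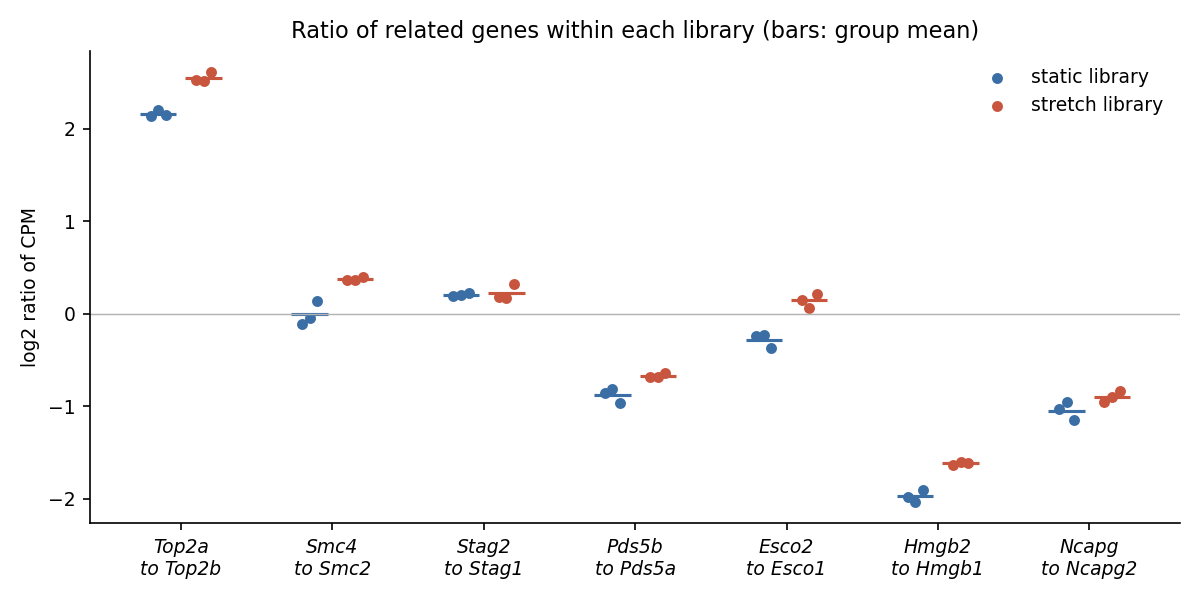
Log2 ratio of the CPM of 2 related genes within each library; points are libraries, bars are group means, and 0 marks equal CPM. The groups are apart for 5 pairs, and the Esco2 to Esco1 ratio lies below 0 in all 3 static and above 0 in all 3 stretched libraries.

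Levels of different genes were compared as CPM per kilobase of the longest transcript. Hmgb1 was the highest, at 226 ± 4.24 in static and 282 ± 6.91 in stretched cells, followed by Top2a at 120.2 ± 4.25 and 171 ± 1.12. Rad21 (91.8 ± 3.02) and Ncapd2 (84.4 ± 3.85) came next in static cells. The lowest levels in static cells were those of Esco2 (5.44 ± 0.257), Nipbl (5.77 ± 0.534) and Esco1 (5.78 ± 0.571), which did not differ beyond their spread. Mki67 went from 32.1 ± 9.44 to 84.2 ± 1.21 CPM per kilobase, from about the level of Smc2 (32.2 ± 1.06) in static cells to above that of Smc4 (72.1 ± 1.62) in stretched ones. Within condensin the subunits of 1 complex were not at equal levels: in static cells Ncapd2 stood at 84.4, Ncaph at 29.7 ± 0.167 and Ncapg at 20.2 ± 0.800, and in condensin II Ncaph2 stood at 65.7 ± 3.16, Ncapg2 at 35.4 ± 1.37 and Ncapd3 at 10.9 ± 0.608. The kleisin of condensin II was thus above that of condensin I, in static and in stretched cells (63.2 ± 2.03 against 38.3 ± 0.184). These lengths come from annotation, and the isoforms that the cells use were not analysed here.

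Related gene lists outside the 33 are given beside the shares of all tested genes, of which 24.9% rose and 25.9% fell. All 9 genes of centromere cohesion and the chromosomal passenger complex rose (median log2 fold change 0.39), among them Sgo2a, a shugoshin that shields centromeric cohesin, from 58.9 ± 1.52 to 85.4 ± 2.73 CPM, and Bub1, the kinase that recruits it, 1.39-fold. Of 5 chromokinesin and chromosome periphery genes 4 rose (median 0.40), led by Nusap1 (1.37-fold) and Kif22 (1.37-fold). The gene not called was Mcph1, a known inhibitor of condensin II, at a log2 fold change of 0.04. Of 6 HMGA and HMGN genes 5 rose (median 0.30), including Hmgn5, a nucleosome-binding protein gene, from 14.0 ± 4.05 to 30.6 ± 1.37 CPM, and Hmgn3 (1.32-fold). Hmga1 was not called (log2 -0.01). Of 7 genes of the other SMC5/6 subunits and loaders 3 rose and 1 fell (median 0.13). Slf1, a factor that brings SMC5/6 to damaged DNA, rose 1.28-fold and Nsmce4a by 0.26 in log2, while Nsmce1, a RING-domain subunit, fell 1.11-fold (edgeR adjusted p = 0.0271), a call lost on leaving out static replicate 1 (0.0541), stretch replicate 1 (0.111) or stretch replicate 2 (0.0883), and under DESeq2 (0.101), scaling by library size (0.159), thinned counts (0.0788) or the GC and length offset (0.0586).

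A list of 8 genes held factors that couple cohesion to the replication fork and also Hdac8, the SMC3 deacetylase gene. Of these 8 genes 6 rose, against 24.9% of all tested genes, and 2 fell, against 25.9% (median 0.26). Ddx11, a helicase of sister cohesion, rose from 31.3 ± 2.01 to 43.9 ± 1.74 CPM and Tipin, a fork protection factor, 1.28-fold. Chtf8, a subunit of the alternative clamp loader, fell from 237 ± 10.2 to 188 ± 5.10 CPM, and the other that fell was Hdac8 (log2 -0.40). Another list held E2f4, genes of the MuvB complex, and its partners B-MYB and FOXM1, with which it drives transcription in G2 and mitosis. Of the 8 genes of this list 3 rose, against 24.9% of all tested genes, and 1 fell, against 25.9% (median 0.08). E2f4 rose by 0.14 in log2 and Foxm1 1.07-fold, from 270.0 ± 2.10 to 289 ± 0.398 CPM, while Lin37 fell by 0.38 in log2. The count higher in this list was 6 when scaled by library size alone, 0 against 1.2-fold and 0 to 3 on leaving out 1 library. The call of E2f4 was lost without stretch replicate 2 (edgeR adjusted p = 0.0719), and that of Foxm1 without static replicate 1 (0.0572) or stretch replicate 1 (0.0711), 2 (0.0642) or 3 (0.0563). Of the 6 MCM helicase genes, which license origins before S phase, 4 rose (median 0.10), or 2 without static replicates 1 or 3 or stretch replicates 2 or 3. Mcm3 and Mcm4 rose 1.16-fold each. Mcph1, Hmga1 and Hdac8 were named after their values were seen. Against 1.2-fold, 5.49% of all tested genes rose, and the counts higher fell in most other lists as well. They were 0 for the MCM genes, 0 for the SMC5/6 subunits and loaders, and 2 for the list with fork factors. For HMGA and HMGN genes the count was 2, for centromere cohesion and the passenger complex 5, and for the chromokinesin list still 4. None of the lists was tested as a list, and their differences in median were not tested.

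**Figure D4:**
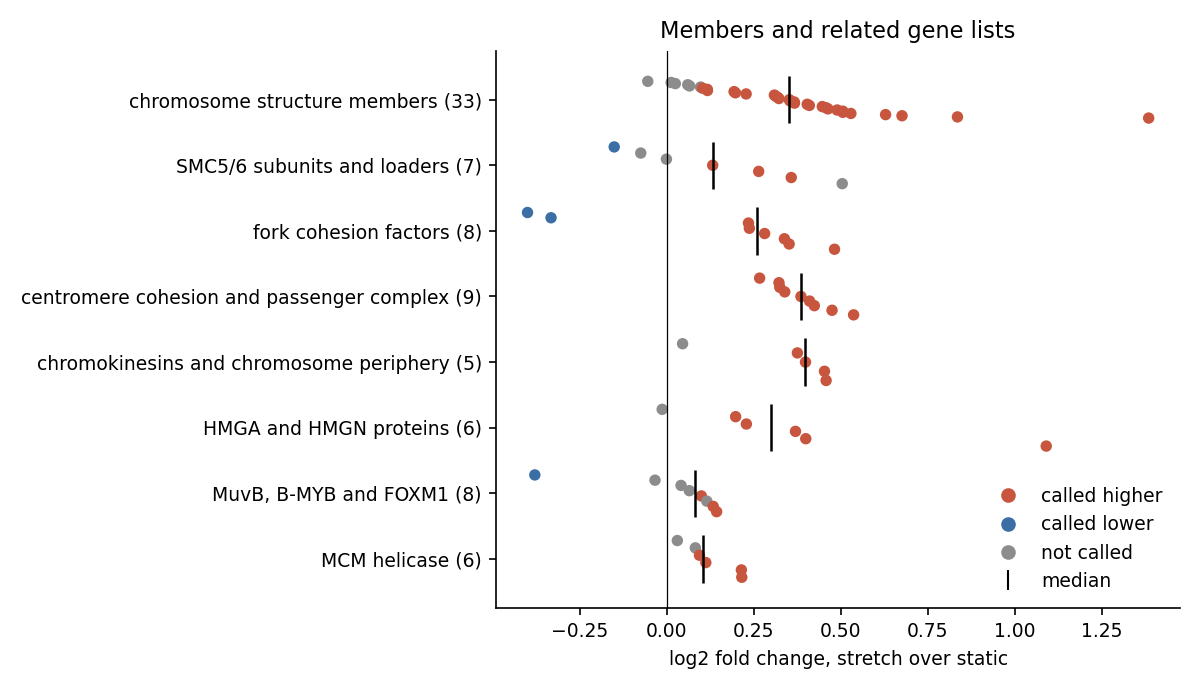
Log2 fold changes of the 33 genes and of 7 related lists, with the number of tested genes in brackets; each point is a gene, coloured by its call, and black bars are medians. Medians run from 0.08 for the MuvB, B-MYB and FOXM1 list to 0.40 for chromokinesins and chromosome periphery genes.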

How the data were processed

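RNA of 6 samples was sequenced, and the authors deposited estimated counts per gene, made with Salmon 1.4.0 and the mouse build mm10/GRCm38 per the submitters' processing notes. How strand and gene-level summing were handled was not given in the sources used here. In all, the table held 14883 genes, each with at least 10 counts in all, of which 14875 matched a symbol by Entrez Gene number. Counts were rounded. Genes kept by filterByExpr (12377) were fitted with edgeR 4.0.16 (R 4.3.3, limma 3.58.1) by the quasi-likelihood test, with TMM factors, a group term and Benjamini-Hochberg adjustment at 0.05. Intervals are at 95%. Within-sample ratios used a prior count of 0.5 and exact permutation tests. GC content and length came from the longest GENCODE M21 transcript, and promoters from RefSeq GRCm38.p6. DESeq2 1.42.0, limma-voom, other scalings and filters, glmTreat, a GC and length offset, a replicate block, thinning and leaving out each library were alternatives. All 33 genes are named. From each related list the rule named the 2 called genes of lowest p in the prevailing direction and 1 in the other. The genes and lists were chosen with earlier results of these data known.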

Additional observations from a re-analysis of the deposited data

How the results depend on the processing

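The count of the 33 genes called higher was 24 to 29 under every alternative in edgeR, DESeq2 and limma-voom except glmTreat against 1.2-fold, which tests a larger change and left 15; leaving out 1 library gave 25 to 27. Scaling by library size alone turned Ncaph2 to 0.006259 (log2). The GC and length offset turned Ncaph2 (0.0317), Stag1 (-0.01403), Stag2 (-0.04711), Wapl (-0.05973), Esco1 (-0.09878), Top2b (-0.05354), Ctcf (-0.01597) and the difference in log2 ratio Stag2 to Stag1 (-0.03112). With the replicate block added to that offset the same genes had 0.03278 (Ncaph2), -0.01587 (Stag1), -0.04703 (Stag2), -0.06057 (Wapl), -0.09051 (Esco1), -0.05468 (Top2b) and -0.01701 (Ctcf). Leaving out 1 library, log2 fold changes ran from -0.03016 to 0.1152 for Esco1 and from -0.007676 to 0.04362 for Ctcf, and the difference in log2 ratio Stag2 to Stag1 ran from -0.03082 to 0.04306. The cause of these turns was not tested.

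Deviations of same-numbered static and stretch samples correlated at 0.00757, 0.0274 and -0.0564, and others at -0.0862 to 0.0918. No sign of pairing by replicate number was seen there. As the labels do not say how replicates were made, these values cannot settle whether the samples were paired by number. With the number as a replicate block 26 of the 33 genes rose, and Stag1 lost its call (edgeR adjusted p = 0.0526). The blocked sign permutation of the ratios cannot go below an exact p of 0.25.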
